A study of Mus musculus with 10 samples.

Results

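Germinal center B cells of wild-type mice were compared between the fraction labelled CC and the fraction labelled CB. The comparison used the 6 libraries labelled Pbrm1+/+ (WT), 3 CB and 3 CC, of the 10 RNA-seq libraries of the study, and took their groups from the sample titles. All of them came from spleens of C57BL/6 mice aged 8 to 10 weeks, collected on day 10 after an immunization whose antigen the labels do not name. Germinal center B cells were enriched on magnetic beads carrying the lectin PNA, and total RNA was sequenced after enzymatic removal of ribosomal RNA. The other 4 libraries, 2 CB and 2 CC, came from mice of the same strain and age labelled Pbrm1-/- (HOMO), in which a gene for a bromodomain subunit of the PBAF chromatin remodelling complex is targeted. They are used here only to set the CC against CB difference of a second genotype beside that of the WT. Neither the meaning of CB and CC nor how the fractions were separated is given in the labels, nor is every part of the names of the count columns explained there. Whether each replicate is a separate animal is not said either, so a p-value here reflects library-to-library variation, part of which may be technical.

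In a germinal center, centroblasts of the dark zone divide and mutate their antibody genes, and centrocytes of the light zone take up antigen and compete for help from T follicular helper cells. The chemokine receptor CXCR4 holds cells in the dark zone, and the surface protein CD83 is a usual mark of light zone cells. Antigen binding and CD40 engagement switch on NF-kB, EGR and NR4A factors and MYC, and cells that receive help return to the dark zone or leave as memory or plasma cells. Tingible body macrophages, which engulf dying B cells, lie among the B cells and can enter a preparation of them.

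The 6 libraries held 13662538 to 61627968 counts over genes, with 19463 to 25196 genes seen at least once. CC replicate 3 was the shallowest and CB replicate 3 the deepest library. Transcripts at the ribosomal RNA locus took 11.3% to 11.9% of the counts in CB and 22.7%, 19.0% and 13.5% in CC replicates 1, 2 and 3. Levels of 10 B cell genes, among them Pax5 and Ms4a1, summed to between 6326 and 7759 CPM (counts relative to library size, scaled by the TMM method) in all 6 libraries. Follicular dendritic and stromal cell genes summed to at most 2.54 CPM, with 5 of the 12 found in the table at 0 in all WT libraries.

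The markers of the fractions lay where the names centroblast and centrocyte would place them. Cd83 (ENSMUSG00000015396.4, mm10 chromosome 13, 43784775 to 43803132) stood at 126, 145 and 144 CPM in CB replicates 1, 2 and 3 and at 305, 360 and 374 CPM in CC replicates 1, 2 and 3. Myc, which drives growth and division, stood at 29.4, 32.1 and 33.0 CPM in CB and 66.0, 68.3 and 74.7 CPM in CC. The CC libraries were the higher ones for both genes, by about the same factor in each replicate number, with no overlap between the fractions. Cxcr4 (chromosome 1, 128588199 to 128592293) fell from 320, 352 and 239 CPM in CB to 68.5, 83.8 and 95.8 CPM in CC. Gcsam, a germinal center protein that restrains B cell movement, fell from 361, 404 and 261 CPM to 66.2, 58.0 and 62.8 CPM. In CB replicate 3, both of these genes were lower than in the other CB libraries, but still well above every CC library. The log2 changes (CC minus CB, with the replicate number as a block) were 1.32 (SE 0.08) for Cd83, 1.15 (SE 0.09) for Myc, -1.87 (SE 0.18) for Cxcr4 and -2.44 (SE 0.15) for Gcsam. Their adjusted p from edgeR's quasi-likelihood test was 0.000452, 0.000584, 0.00173 and 0.000452 in that order.

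**Figure D1:**
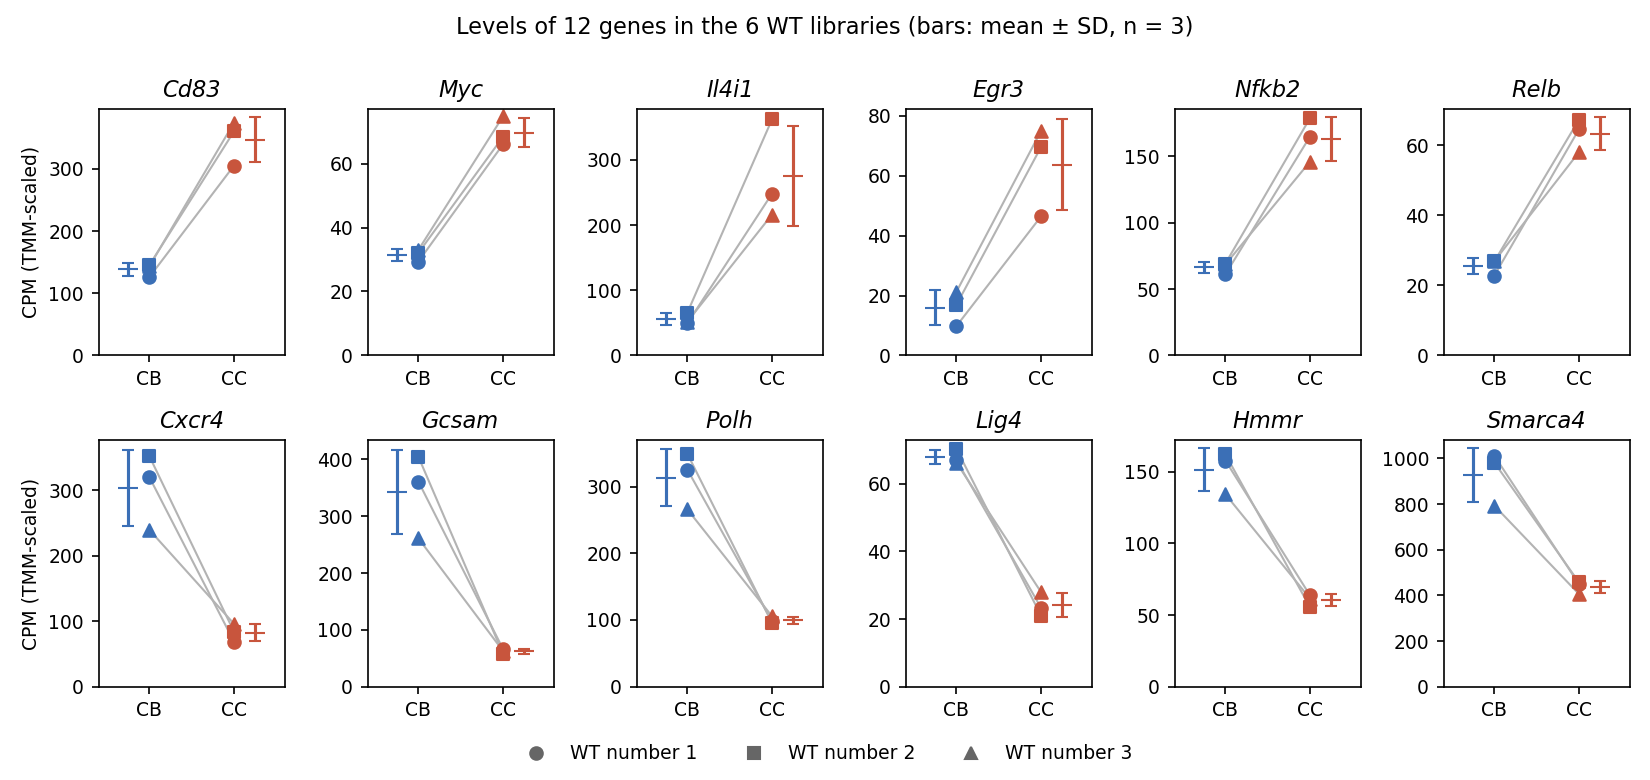
CPM of 12 genes in the 6 WT libraries, with a line joining the CB and the CC library of each replicate number and bars for mean ± SD (n = 3). The fractions do not overlap for any of the 12 genes: Cd83, Myc, Il4i1, Egr3, Nfkb2 and Relb are higher in CC, and Cxcr4, Gcsam, Polh, Lig4, Hmmr and Smarca4 are lower. Of all genes tested, 17.9% do not overlap and are higher in CC, and 18.7% do not overlap and are lower.

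Of 14970 genes tested, 1787 (11.9%) were higher and 1843 (12.3%) lower in CC by edgeR at an adjusted p under 0.05, so 24.2% changed. The CC and CB libraries did not overlap for 2684 genes (17.9%) that were higher in CC and for 2800 (18.7%) that were lower. Statements below that the fractions did not overlap are to be read against these shares. The median log2 change over all genes tested was 0.01. In bulk RNA such as this, a higher share of cells of one type and more RNA of a gene per cell cannot be told apart. The counts depended strongly on replicate 3. Without that replicate in both fractions 7523 genes passed, against 595 without replicate 1 and 479 without replicate 2, each fit then resting on 4 libraries. The gene lists used below each share some members with others. Their counts are to be read against the shares of all genes tested, 11.9% higher and 12.3% lower.

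Light zone activation genes were higher in CC. Of 28 listed genes 27 were tested, of which 21 rose and 1 fell, against 11.9% and 12.3% of all genes. Their median log2 change was 1.04, with medians of 0.98, 1.07 and 0.90 within replicate numbers 1, 2 and 3. Il4i1, a secreted oxidase of phenylalanine and other amino acids, changed most, from 49.4, 65.8 and 52.0 CPM in CB to 248, 362 and 216 CPM in CC (log2 change 2.28, SE 0.10, edgeR adjusted p = 0.000313). Egr3, a zinc finger factor induced by antigen receptor signals, went from 9.79, 16.9 and 21.2 CPM to 46.4, 69.6 and 75.0 CPM (log2 change 2.03, SE 0.11, edgeR adjusted p = 0.000452). In both genes the lowest CC library lay above the highest CB library by more than the whole range of the CB libraries. Lmo2, a LIM domain partner of transcription factors, rose from a mean of 35.9 ± 5.90 CPM (SD, n = 3) to 88.0 ± 20.4 CPM. Gadd45b was the member that fell, by 0.49 on the log2 scale, and was picked out after its value was seen. The members that did not pass were Fas (log2 change -0.14), Cd69 (-0.06), Plek (0.10), Basp1 (0.10) and Traf1 (0.15). Without replicates 1, 2 and 3 in turn, 17, 12 and 22 members passed as higher.

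Genes of the immediate early response moved in both directions. Of 23 tested members 10 rose, 2 fell and 11 did not pass, and the median log2 change was 0.33. Higher members numbered 6, 5 and 10 without replicates 1, 2 and 3, and 5 with no replicate block. Egr1, Egr2 and Egr3 rose, as did Nr4a1 and Nr4a3, orphan nuclear receptors that report antigen receptor signalling. Egr1 went from 39.9, 48.0 and 45.1 CPM in CB to 89.7, 119 and 87.1 CPM in CC (log2 change 1.14, SE 0.10, edgeR adjusted p = 0.000823). Nr4a1 stood at 10.7, 11.8 and 38.2 CPM in CB and 34.9, 38.8 and 73.6 CPM in CC. Both replicate 3 libraries were the high ones of their fraction, and CB replicate 3 was above CC replicate 1, so the fractions overlapped while the CC library was higher within each number. Its log2 change was 1.44 (SE 0.17, edgeR adjusted p = 0.00223), and with no replicate block it was 1.26 with an adjusted p of 0.192, the highest over the alternatives, which reached down to 8.6e-12. Junb rose, but lost its call with no replicate block (log2 change 0.73, edgeR adjusted p = 0.122). Fos (-0.01), Fosb (0.03) and Jun (-0.15) had log2 changes close to 0 and did not pass. A part of tissue dissociation in these values was not tested.

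Targets of NF-kB and CD40 signalling rose on most of their list. Of 29 genes 27 were tested and 20 rose, with a median log2 change of 0.73. None fell by edgeR, DESeq2 or voom, and 1 was lower at an unadjusted p under 0.05 in edgeR. Nfkb2, which encodes the p100 precursor of the alternative NF-kB pathway, stood at 61.1, 69.2 and 68.6 CPM in CB and 165, 179 and 146 CPM in CC. Relb, its partner subunit, stood at 22.8, 26.9 and 26.9 CPM in CB and 64.6, 67.3 and 58.1 CPM in CC. Both genes were higher in all 3 CC libraries, with log2 changes of 1.30 (SE 0.10) and 1.31 (SE 0.11) and edgeR adjusted p = 0.000574 and 0.000718. Cd40, the receptor for T cell CD40 ligand, changed by 1.04 (SE 0.09) on the log2 scale, and Bcl3, a nuclear IkB family member, by 1.28 (SE 0.11), with edgeR adjusted p = 0.000734 and 0.000774. Rela, the main activating subunit of the canonical pathway, had a log2 change of 0.16 and did not pass. Of the 20 rises, 14 held in replicate number 3 by the rule given below, and the 2 members with the highest log2 changes, Tnfaip2 (4.08) and Marcks (2.15), were among the others. The count of higher members was 12, 6 and 22 without replicates 1, 2 and 3.

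The kappa B motif, to which NF-kB dimers bind, was searched on both strands of the 250 bases before the start of each gene, in RefSeq promoters on GRCm38.p6. It was found for 10 of the 21 list members with a promoter in the table (47.6%) and for 8.61% of the 9600 tested genes with one. Over all genes that rose the share was 9.68%, and over all that fell it was 9.05%. The windows of Nfkb2 (chr19:46304487-46304736, plus strand), Nfkbie (chr17:45555450-45555699, plus strand) and Ebi3 (chr17:55952373-55952622, plus strand) are shown because these members rose and hold matches. Nfkbie encodes an inhibitor of NF-kB and Ebi3 a subunit of the cytokines IL-27 and IL-35. The starts are RefSeq's. That of Nfkb2 was picked from 3 in the promoter table for the number of matches in its window. It is the most upstream of them, and its window lies inside the gene as annotated for the counts. Capitals mark the kappa B matches, which in Nfkb2 overlap each other in part.
Nfkb2: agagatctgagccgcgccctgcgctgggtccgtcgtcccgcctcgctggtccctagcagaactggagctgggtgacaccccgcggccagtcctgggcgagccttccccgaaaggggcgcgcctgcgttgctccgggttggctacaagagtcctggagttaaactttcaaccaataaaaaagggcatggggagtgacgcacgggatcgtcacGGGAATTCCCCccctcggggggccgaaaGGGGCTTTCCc
Nfkbie: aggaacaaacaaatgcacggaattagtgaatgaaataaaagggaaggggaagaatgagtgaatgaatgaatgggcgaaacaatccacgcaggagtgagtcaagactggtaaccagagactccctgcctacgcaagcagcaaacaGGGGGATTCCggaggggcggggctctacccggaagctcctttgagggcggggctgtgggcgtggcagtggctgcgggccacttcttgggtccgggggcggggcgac
Ebi3: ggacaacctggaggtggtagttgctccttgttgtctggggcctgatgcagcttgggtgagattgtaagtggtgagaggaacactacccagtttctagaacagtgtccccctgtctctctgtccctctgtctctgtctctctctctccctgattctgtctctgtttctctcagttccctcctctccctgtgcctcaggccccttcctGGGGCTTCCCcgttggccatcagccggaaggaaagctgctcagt
The matches lie 39, 38 and 11 bases before the start of Nfkb2, 106 before that of Nfkbie and 44 before that of Ebi3. Nfkbie stood at 63.7, 74.3 and 83.3 CPM in CB and 91.6, 125 and 155 CPM in CC, a log2 change of 0.73 (SE 0.10). Ebi3 stood at 2.94, 3.86 and 2.83 CPM in CB and 9.19, 13.7 and 9.90 CPM in CC, a log2 change of 1.76 (SE 0.19). The window of Bcl3, which rose as well, held no match.

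Genes that receive or answer T cell help were higher in CC on balance. Of 28 tested members 15 rose and 3 fell, with a median log2 change of 0.39. Slamf1, a self-binding receptor at the contact of B and T cells, rose from 62.3, 59.8 and 67.3 CPM to 129, 127 and 126 CPM. Cd86, a ligand of CD28, rose from 108, 104 and 109 CPM to 198, 180 and 187 CPM. Replicates differed little for both genes, and the fractions were far apart (log2 changes 1.01 and 0.82, both SE 0.08, edgeR adjusted p = 0.000734 and 0.00119). Slamf7, a receptor of the same family, went the other way, from 321, 327 and 274 CPM to 117, 138 and 153 CPM (log2 change -1.18, SE 0.13, edgeR adjusted p = 0.00157). The other falls were those of Slamf6 and Plxnb2, with log2 changes of -0.87 and -0.40, named after their values were seen. All 15 rises held in replicate number 3. Higher members numbered 8, 6 and 16 without replicates 1, 2 and 3.

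Antigen receptor and presentation genes changed less evenly. Of 34 tested genes of B cell receptor signalling 9 rose and 3 fell, and the median log2 change was 0.11. Cr2, the complement receptor that lowers the threshold for antigen, rose from 374, 347 and 326 CPM to 634, 612 and 604 CPM. Cd72, an inhibitory coreceptor, rose from 108, 162 and 120 CPM to 204, 285 and 259 CPM (log2 changes 0.82 and 0.95, both SE 0.09, edgeR adjusted p = 0.00146 and 0.00112). The fractions overlapped for neither gene, and higher members of this list numbered 2, 2 and 10 without replicates 1, 2 and 3. Among 17 genes of MHC class II presentation 4 rose and 2 fell, against 11.9% and 12.3% of all genes. Ifi30, a lysosomal thiol reductase, rose from 106, 99.0 and 80.9 CPM to 235, 216 and 177 CPM (log2 change 1.14, SE 0.08, edgeR adjusted p = 0.000556). March1, a ubiquitin ligase that removes MHC class II and CD86 from the surface, fell from 277, 262 and 291 CPM to 168, 145 and 169 CPM. Ciita, the master activator of MHC class II genes, rose by 0.70 on the log2 scale, with edgeR adjusted p = 0.00274 in all 6 libraries and 0.0531 and 0.0586 without replicates 1 and 2 (range over the alternatives 3.7e-11 to 0.0586). The class II chains H2-Aa, H2-Ab1 and H2-Eb1 and the invariant chain Cd74 had log2 changes of 0.19, 0.29, 0.31 and 0.32 and did not pass.

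MYC targets of ribosome biogenesis rose, while the ribosomal proteins themselves mostly did not pass. Of 50 tested targets 29 rose, with a median log2 change of 0.37. None fell by edgeR, DESeq2 or voom, and 0 were lower at an unadjusted p under 0.05 in edgeR. Srm, which makes spermidine, stood at 13.6, 13.4 and 12.4 CPM in CB and 29.2, 29.6 and 30.4 CPM in CC. Polr1b, a core subunit of RNA polymerase I, stood at 25.4, 26.6 and 24.4 CPM in CB and 48.3, 57.2 and 53.4 CPM in CC. Each gene had 3 close values in each fraction and no overlap (log2 changes 1.18, SE 0.11, and 1.06, SE 0.09, edgeR adjusted p = 0.00111 and 0.000949). Noc2l and Rrp1b, both nucleolar, had log2 changes of 0.99 (SE 0.08) and 1.03 (SE 0.10). Odc1, another polyamine gene and MYC target, had a log2 change of 0.01 and did not pass. Of 78 cytosolic ribosomal protein genes, 3 rose and 3 fell, and the median log2 change was -0.26. Within replicate numbers 1 and 2 that median was -0.43 and -0.44, and within number 3 it was 0.08. DESeq2 called 19 of these genes lower and voom 9. Without replicate 3, 7 passed as higher and 59 as lower, and without replicate 1 or 2 none passed. Near-identical copies of ribosomal protein genes make their counts uncertain. For the ribosome biogenesis list, 13, 11 and 34 members passed as higher without replicates 1, 2 and 3 in turn. The E-box CACGTG, a MYC-binding motif, was searched in the same promoter windows as the kappa B motif. It was found for 3 of the 45 members of this list with a promoter (6.67%), against 8.56% of the 9600 tested genes. On the light zone activation list it was found for 4 of 19 (21.1%).

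Energy and lipid metabolism differed by pathway. Of 71 nuclear genes of the respiratory chain and ATP synthase, 27 fell, with a median log2 change of -0.43. None rose by edgeR, DESeq2 or voom, and 0 were higher at an unadjusted p under 0.05 in edgeR. Their median was -0.57, -0.59 and -0.10 within replicate numbers 1, 2 and 3, and 0, 0 and 53 members passed as lower without each of these in turn. Sdhb, the iron-sulfur subunit of complex II, stood at 113, 121 and 77.6 CPM in CB and 50.3, 56.6 and 59.0 CPM in CC, so that the gap was smallest in number 3. The 13 genes of the mitochondrial genome summed to 19333, 17901 and 12392 CPM in CB and 26807, 15762 and 9213 CPM in CC, so that CC was higher in number 1 and lower in numbers 2 and 3. For Sdhb the edgeR adjusted p was 0.00995 in all 6 libraries, and 0.0806 and 0.100 without replicates 1 and 2 (range over the alternatives 1.3e-09 to 0.100). Of 22 glycolysis genes 7 rose by edgeR, and 1, 0 and 8 did without replicates 1, 2 and 3. DESeq2 called 1 of them lower and edgeR none (1 at an unadjusted p under 0.05). The abundant enzymes Gapdh (log2 change -0.46), Eno1 (-0.16) and Pkm (0.12) did not pass. Of 29 genes of cholesterol and fatty acid synthesis 14 rose and 1 fell, with a median log2 change of 0.31. Acaca, the first enzyme of fatty acid synthesis, went from 67.6, 66.9 and 86.8 CPM to 141, 152 and 145 CPM (log2 change 0.99, SE 0.10, edgeR adjusted p = 0.00148). Lss, which closes the sterol ring, went from 35.0, 40.9 and 31.3 CPM to 76.7, 88.3 and 48.7 CPM (log2 change 0.96, SE 0.12, edgeR adjusted p = 0.00267). All CC libraries were above all CB libraries for both, with CC replicate 3 the lowest for Lss. The count of higher members on this list was 2, 2 and 19 without replicates 1, 2 and 3, 5 with no replicate block, and the fall was that of Hsd17b7 (-0.53). Among 23 genes of amino acid transport and one-carbon metabolism 6 rose and 1 fell, with a median log2 change of 0.04. Shmt1, the cytosolic serine hydroxymethyltransferase, rose by 0.91 (SE 0.09) on the log2 scale.

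Dark zone genes outside the cell cycle fell. All 15 listed genes were tested, of which 12 fell and 1 rose, with a median log2 change of -1.17 and medians of -1.15, -1.35 and -0.84 within replicate numbers 1, 2 and 3. Beside Cxcr4 and Gcsam, the falls included genes of antibody gene mutation and of break joining. Polh, the error-prone polymerase eta, stood at 325, 349 and 266 CPM in CB and 98.2, 95.5 and 105 CPM in CC (log2 change -1.64, SE 0.12, edgeR adjusted p = 0.000569). Lig4, the ligase of end joining, fell from 67.0, 70.3 and 66.3 CPM to 23.3, 21.0 and 28 CPM (edgeR adjusted p = 0.000667). For both genes the lowest CB library was above the highest CC library. The member that rose was Sla, an adaptor, with a log2 change of 0.62, named after its value was seen. Lower members numbered 10, 9 and 12 without replicates 1, 2 and 3.

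The wider set of hypermutation, switching and mismatch repair genes did not move as one. Of 31 tested members 7 fell, 4 rose and 20 did not pass, with a median log2 change of 0.00. Of all genes tested 12.3% fell and 11.9% rose. Neil1, a glycosylase of base excision repair, fell from 591, 664 and 406 CPM to 253, 260 and 201 CPM (log2 change -1.20, SE 0.10, edgeR adjusted p = 0.000734). Msh6, of mismatch repair, and Ung, which removes uracil from DNA, had log2 changes of -0.24 and 0.29 and did not pass. Without replicates 1, 2 and 3 in turn, 4, 4 and 12 members passed as lower.

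Genes of G2 and M phase fell almost throughout. All 60 were tested, 58 fell, 1 rose (Mybl2, log2 change 0.58) and Pttg1 (-0.37) did not pass. The median log2 change was -0.83, and within replicate numbers 1, 2 and 3 it was -0.86, -0.94 and -0.69. Hmmr, a spindle protein (mm10 chromosome 11, 40701395 to 40733422), stood at 158, 162 and 134 CPM in CB and 63.7, 55.5 and 61.5 CPM in CC. Aspm, which organizes spindle poles, stood at 264, 255 and 297 CPM in CB and 103, 101 and 125 CPM in CC. Cdc25b, the phosphatase that starts entry into mitosis, stood at 446, 460 and 328 CPM in CB and 169, 162 and 152 CPM in CC. The CC level was under 0.5 of the CB level within each number for all 3 genes. Their log2 changes were -1.33 (SE 0.10), -1.31 (SE 0.08) and -1.34 (SE 0.10), with edgeR adjusted p = 0.000654, 0.000452 and 0.000654. Without replicates 1, 2 and 3 in turn, 40, 30 and 59 members passed as lower. Genes of DNA replication and S phase differed less. Of 55 tested 15 fell and 2 rose, and the median log2 change was -0.16. The rises were those of Tk1 (log2 change 0.45) and Timeless (0.36), and Mcm2 (-0.12), Mcm5 (-0.20) and Pcna (-0.44) did not pass. Tk1 had edgeR adjusted p = 0.00816 with all 6 libraries, and 0.104 and 0.111 without replicates 1 and 2 (range over the alternatives 4.0e-05 to 0.111). The count of lower S phase members was 1, 1 and 28 without replicates 1, 2 and 3.

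Promoters of G2 and M phase genes are known for pairs of CCAAT boxes, bound by the factor NF-Y, and for the cell cycle genes homology region, bound by the MuvB complexes. CCAAT on either strand was found in the 250 bases before the start of 39 of the 51 list members with a RefSeq promoter (76.5%), against 37.0% of the 9600 tested genes with one. Over all genes that fell the share was 40.4%, and over all that rose it was 32.6%. Genes of DNA replication and S phase, most of which did not pass as lower, held it in 27 of 45 promoters. The letters TTTGAA, or the form with a C, which is TTCGAA, stand for the homology region and were searched on either strand. They were found for 33.3% of the list against 12.6%, and both together for 31.4% against 5.03%. On the S phase list these shares were 13.3% and 11.1%. The homology region letters were also found for 5 of 19 promoters of light zone activation genes (26.3%), a list that rose. They were found for 2 of 11 on the dark zone list (18.2%). Both motifs together were found for 0 and 1 of the promoters of these lists. A match is a description of the letters and not a measured site. The windows of Hmmr (chr11:40733438-40733687, minus strand), Ccnb2 (chr9:70421555-70421804, minus strand) and Ect2 (chr3:27153855-27154104, minus strand) on GRCm38.p6 are shown as members that fell and hold several matches. For Ect2, which has 2 starts in the table, the window shown is that of the start with more matches. Capitals mark both motifs, with CCAAT read as ATTGG where it lies on the opposite strand.
Hmmr: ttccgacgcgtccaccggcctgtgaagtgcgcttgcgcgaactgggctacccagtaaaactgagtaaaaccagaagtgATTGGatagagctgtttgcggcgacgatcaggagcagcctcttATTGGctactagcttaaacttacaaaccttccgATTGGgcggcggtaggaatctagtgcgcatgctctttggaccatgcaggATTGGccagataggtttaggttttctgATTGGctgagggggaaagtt
Ccnb2: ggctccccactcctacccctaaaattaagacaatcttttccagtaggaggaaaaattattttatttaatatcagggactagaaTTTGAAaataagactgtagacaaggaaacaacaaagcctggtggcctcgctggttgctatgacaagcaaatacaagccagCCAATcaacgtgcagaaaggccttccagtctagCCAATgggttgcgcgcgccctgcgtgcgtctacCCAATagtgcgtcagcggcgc
Ect2: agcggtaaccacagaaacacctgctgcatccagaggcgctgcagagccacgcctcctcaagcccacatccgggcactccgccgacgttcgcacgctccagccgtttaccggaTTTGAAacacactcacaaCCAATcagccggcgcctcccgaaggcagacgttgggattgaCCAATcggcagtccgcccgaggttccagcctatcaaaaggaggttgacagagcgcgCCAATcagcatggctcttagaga
Hmmr holds 5 CCAAT matches, from 172 to 20 bases before its start, and no match to the homology region letters. Ccnb2, the cyclin B2 gene, and Ect2, which directs the cleavage furrow, hold 3 CCAAT matches and 1 TTTGAA each. Ccnb2 fell from 132, 140 and 91.6 CPM to 38.1, 32.7 and 39.4 CPM, a log2 change of -1.70 (SE 0.16). Ect2 fell from 121, 121 and 132 CPM to 66.8, 58.2 and 66.0 CPM, a log2 change of -0.97 (SE 0.08). The windows of Cxcr4 and Gcsam held neither of these motifs, nor the kappa B motif. On the dark zone list as a whole, 4 of 11 promoters (36.4%) held CCAAT.

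**Figure D2:**
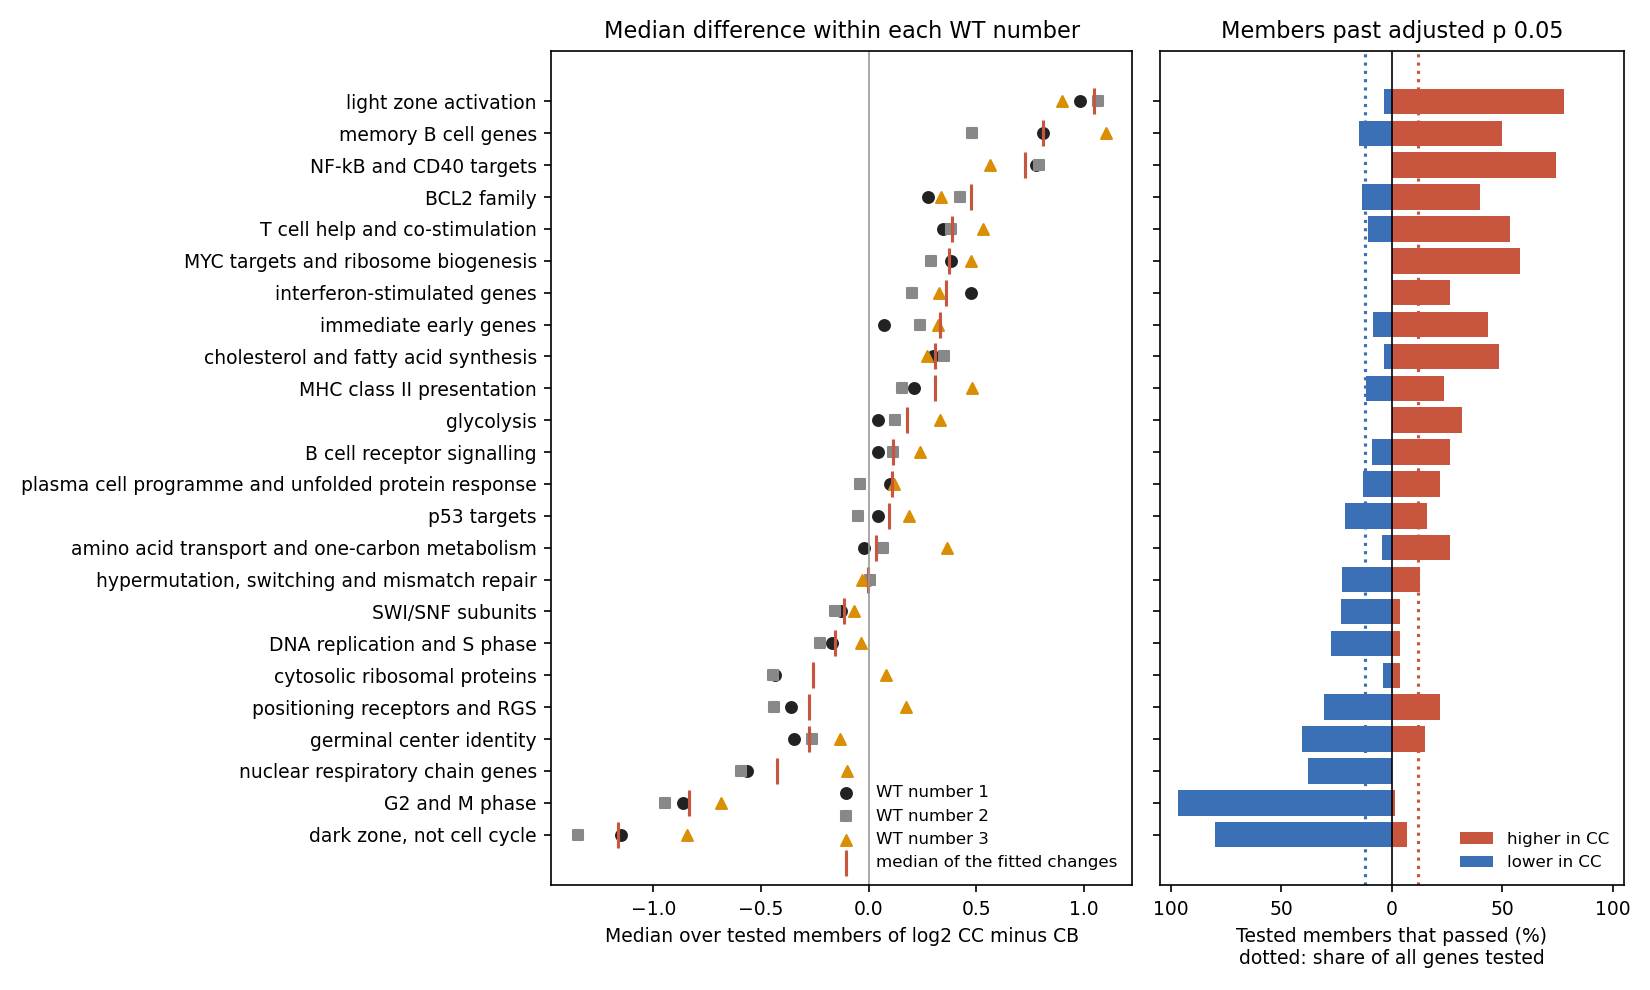
The 24 lists of processes by their median log2 difference (CC minus CB) within each WT replicate number and in the fit (left), and by the share of tested members that passed as higher or lower (right), with dotted lines at the shares of all genes tested, 11.9% and 12.3%. Light zone, memory and NF-kB lists have medians of 1.04, 0.81 and 0.73, and the dark zone and G2 and M phase lists of -1.17 and -0.83; ribosomal protein and respiratory chain genes lie close to 0 in number 3 alone.

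Genes of memory B cells were split between a larger group that rose and a smaller one that fell. Of 20 tested members 10 rose and 3 fell, and the median log2 change was 0.81. Zeb2, a zinc finger repressor, went from 16.4, 14.8 and 19.5 CPM to 64.5, 46.8 and 56.8 CPM (log2 change 1.72, SE 0.12, edgeR adjusted p = 0.000528). Tle3, a corepressor, went from 49.7, 49.0 and 39.9 CPM to 109, 103 and 86.6 CPM (log2 change 1.11, SE 0.08, edgeR adjusted p = 0.000569). Ccr6, the receptor that marks precursors of memory cells, was low in number 1 and 2 libraries and higher in number 3. It stood at 0.535, 0.432 and 2.11 CPM in CB and 3.83, 3.10 and 15 CPM in CC. Its log2 change was 2.83 (SE 0.27, edgeR adjusted p = 0.00111, and 0.0577 with no replicate block, the highest over the alternatives, whose lowest was 1.2e-13). Nt5e, the surface enzyme CD73, fell from 115, 121 and 116 CPM to 38.9, 41.2 and 51.4 CPM (log2 change -1.43, SE 0.11, edgeR adjusted p = 0.000569). Summed levels of 13 T cell genes, of 8 NK cell genes and of 12 neutrophil genes were highest in replicate 3 of each fraction among the WT libraries, at most 22.9 CPM. The part of these in the memory gene values was not tested. Higher memory genes numbered 8, 8 and 11 without replicates 1, 2 and 3.

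Survival, fate and positioning genes gave smaller groups. Of 15 BCL2 family genes 6 rose and 2 fell. Bcl2l1, which encodes the survival protein BCL-XL, rose from 18.6, 18.3 and 16.5 CPM to 34.7, 42.4 and 29.3 CPM, and Bcl2l11, which encodes the death protein BIM, fell from 82.6, 72.4 and 95.3 CPM to 37.7, 39.5 and 58.4 CPM. Their log2 changes were 0.98 (SE 0.12, edgeR adjusted p = 0.00223) and -0.90 (SE 0.10, edgeR adjusted p = 0.00201), with no overlap between fractions. Mcl1, a survival protein that germinal center B cells need, had a log2 change of -0.27 and did not pass. Of 23 genes of the plasma cell programme and the unfolded protein response 5 rose and 3 fell, against 11.9% and 12.3% of all genes. Jchain, the joining chain of IgM and IgA, fell from 477, 504 and 521 CPM to 135, 151 and 256 CPM (log2 change -1.53, SE 0.16, edgeR adjusted p = 0.00189), while Derl3, a factor of protein removal from the endoplasmic reticulum, rose by 1.34 (SE 0.13). Of 23 positioning receptors and RGS genes 5 rose and 7 fell. S1pr3, a sphingosine phosphate receptor, rose from 50.6, 49.0 and 38.1 CPM to 114, 115 and 94.3 CPM, while S1pr2, which confines B cells to the germinal center, fell from 389, 401 and 325 CPM to 282, 293 and 279 CPM (log2 change -0.38, SE 0.09, edgeR adjusted p = 0.0244). Germinal center identity factors were lower more often than higher, with 11 falls and 4 rises of 27. Pou2af1, the coactivator of octamer factors, fell from 1593, 1563 and 1212 CPM to 516, 564 and 675 CPM (log2 change -1.31, SE 0.16, edgeR adjusted p = 0.00245). Bcl6, the master repressor of the germinal center programme, stood at 555, 563 and 417 CPM in CB and 438, 475 and 351 CPM in CC and did not pass (log2 change -0.28, edgeR adjusted p = 0.0501). Without replicate 1 or 2, 1 identity factor passed as lower, and without replicate 3, 17 did.

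Among p53 targets 4 of 19 fell and 3 rose, against 12.3% and 11.9% of all genes. Rrm2b, a ribonucleotide reductase subunit, fell from 144, 137 and 133 CPM to 53.5, 50.1 and 55.5 CPM, and Trp53inp1, a stress protein, from 180, 169 and 262 CPM to 59.2, 56.5 and 114 CPM. Both falls were over 1 log2 unit (-1.38, SE 0.09, and -1.46, SE 0.11, edgeR adjusted p = 0.000452 and 0.000569) and had no overlap between fractions. Cdkn1a, the cell cycle inhibitor p21, had a log2 change of 0.53 and did not pass. Of 23 interferon-stimulated genes 6 rose by edgeR and 5 by DESeq2, but in edgeR 0 did without replicate 1, without replicate 2, with no replicate block or with the macrophage sum as a covariate. Of 26 subunits of SWI/SNF complexes 6 fell and 1 rose (Smarca2, log2 change 0.75). Smarca4, an ATPase of the complex, stood at 1012, 982 and 793 CPM in CB and 449, 457 and 406 CPM in CC (log2 change -1.08, SE 0.09, edgeR adjusted p = 0.000782). Its alternative ATPase Smarca2 stood at 62.7, 57.1 and 60.2 CPM in CB and 120, 101 and 84.1 CPM in CC, with edgeR adjusted p = 0.00423, and 0.0588 and 0.0648 without replicates 1 and 2 (range over the alternatives 3.6e-08 to 0.0648). Pbrm1 stood at 310, 299 and 307 CPM in CB and 234, 235 and 247 CPM in CC. Its log2 change was -0.35 (SE 0.08, edgeR adjusted p = 0.0209), but -0.14 with an offset for GC content (adjusted p = 0.246). Its adjusted p was 0.234 and 0.195 without replicates 1 and 2, 0.187 against a fold of 1.2 and 0.243 with the macrophage sum as a covariate, over a range of 0.00013 to 0.246.

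The largest falls lay partly outside the lists. Reln, a secreted matrix protein known from neurons, stood at 86.2, 87.0 and 82.8 CPM in CB and 8.26, 10.6 and 11.8 CPM in CC (log2 change -3.08, SE 0.13, edgeR adjusted p = 0.000277). Lgr5, a Wnt pathway receptor known from gut stem cells, stood at 25.2, 24.5 and 22.4 CPM in CB and 2.86, 3.56 and 3.46 CPM in CC (log2 change -2.88, SE 0.16, edgeR adjusted p = 0.000452). Pafah1b3, an esterase subunit, stood at 101, 108 and 71.4 CPM in CB and 14.5, 16.0 and 17.9 CPM in CC (log2 change -2.52, SE 0.17, edgeR adjusted p = 0.000569). For each of the 3 genes the lowest CB library was far above the highest CC library, and the rule for naming required that the fractions not overlap. Ccdc190 had the lowest log2 change of the genes named by the rule, -4.85 (SE 0.47), with 6.54, 7.58 and 5 CPM in CB and 0.121, 0.509 and 0.0692 CPM in CC. In log2(CPM + 0.5) its differences were -3.50, -3.00 and -3.27 in numbers 1, 2 and 3. Tgfa, an EGF family ligand, the sodium channel genes Scn11a and Scn8a, the receptor tyrosine kinase gene Ret and the glycan enzyme gene Gcnt3 had log2 changes of -4.37, -4.20, -2.54, -3.57 and -3.21. For Ccdc190, Tgfa and Scn11a every CC library lay under 1 CPM, so the fitted changes depend on the prior count and bound no fold. Zkscan16 and Ifit1bl1 followed with -2.73 and -2.47. None of these calls was lost in any alternative in which the gene was tested.

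Among the largest rises that held in replicate number 3, several were of receptors. Shank1, a scaffold protein of synapses (mm10 chromosome 7, 44310253 to 44360572), had the highest log2 change, 2.99 (SE 0.20, edgeR adjusted p = 0.000718), from 9.71, 16.5 and 17.2 CPM to 91.4, 168 and 91.2 CPM. Cfp, which encodes the complement factor properdin, stood at 6.23, 6.95 and 6.21 CPM in CB and 50.3, 32.8 and 33.2 CPM in CC (log2 change 2.55, SE 0.17, edgeR adjusted p = 0.000522). Fcrl5, an Fc receptor-like protein of B cells, stood at 0.459, 0.864 and 1.19 CPM in CB and 2.34, 3.41 and 14.2 CPM in CC, so CC replicate 3 was far above the rest. Ffar2, a receptor for short-chain fatty acids, went from 0.765, 0.897 and 1.12 CPM to 6.49, 4.27 and 5.88 CPM, and Lifr, a cytokine receptor, from 1.99, 1.23 and 3.28 CPM to 13.4, 9.92 and 12.7 CPM. Ppfia4, Atxn1 and Trabd2b had log2 changes of 2.85, 2.67 and 2.50. The following genes lost their call in 1 fit each. Pard3b (2.67) had edgeR adjusted p = 0.00402 and 0.0531 without replicate 2, Ncan (2.43) 0.00447 and 0.0581 without replicate 2, and Tlr7 (2.57) 0.00724 and 0.0526 without replicate 1, each of these being the highest over the alternatives (lowest 4.6e-08, 8.8e-08 and 3.3e-07).

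**Figure D3:**
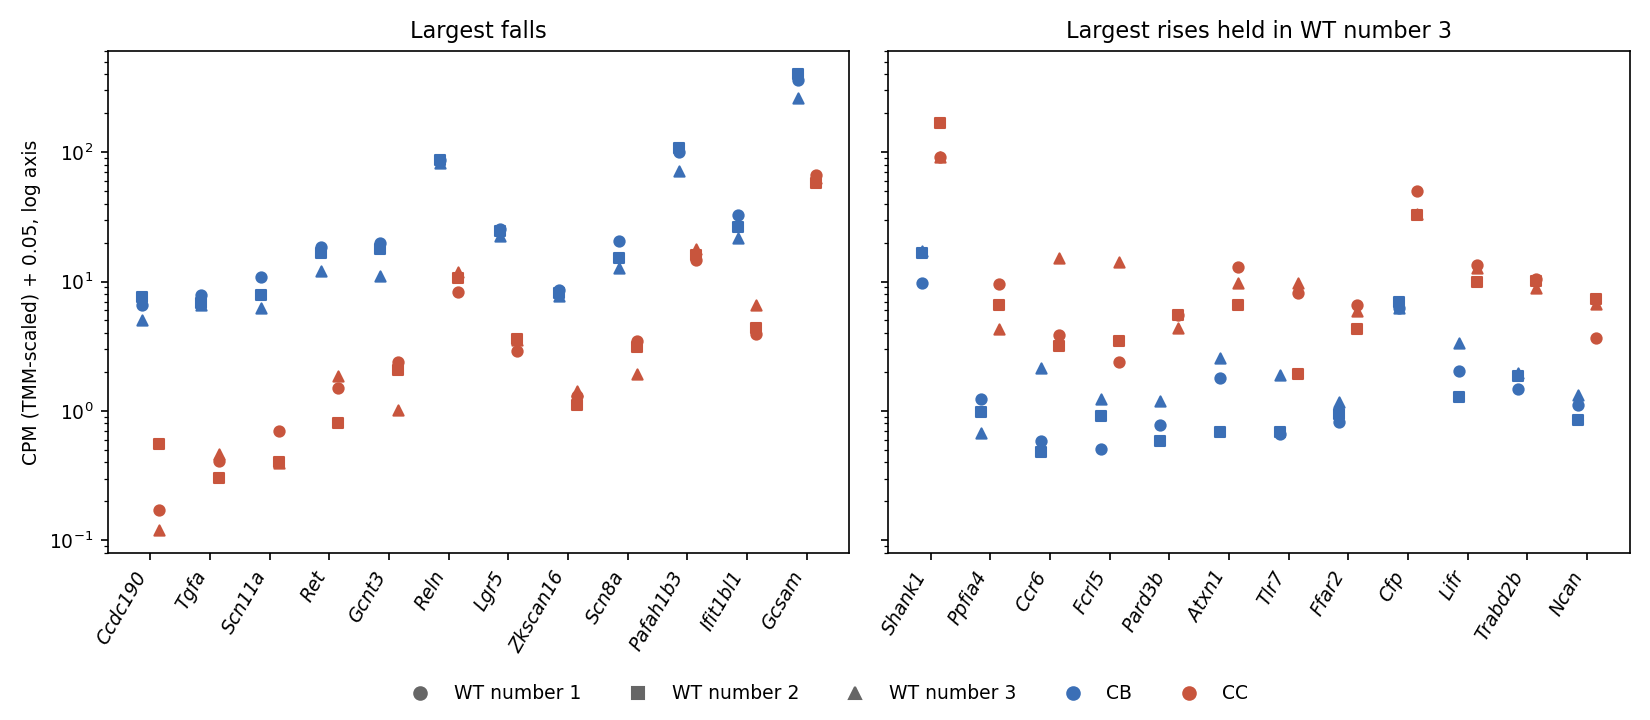
CPM (plus 0.05, log axis) in the 3 CB and 3 CC libraries for the largest falls (left) and the largest rises that held in replicate number 3 (right), with 1 marker shape per replicate number. For Reln the CB libraries lie between 82.8 and 87.0 CPM and the CC libraries between 8.26 and 11.8 CPM; for Shank1 they lie between 9.71 and 17.2 CPM and between 91.2 and 168 CPM.

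Macrophage transcripts differed between the CC libraries. Summed levels of the 30 genes on the macrophage list were 575, 621 and 503 CPM in CB replicates 1, 2 and 3 and to 2056, 838 and 483 CPM in CC replicates 1, 2 and 3. Without Apoe, which stood at 347, 386 and 296 CPM in CB, the sums were 228, 235 and 208 CPM in CB and 1706, 536 and 235 CPM in CC. CC replicate 1 was thus far above all CB libraries and CC replicate 2 moderately so, while CC replicate 3 lay below all CB libraries with Apoe and level with the highest of them without it. The HOMO libraries, at 398 to 534 CPM with Apoe, lay near or below the WT CB libraries. Lgmn, which did not rise in CC, held most of the sum without Apoe in WT CB. It stood at 189, 212 and 176 CPM there and at 167, 146 and 148 CPM in WT CC. Of the list, 17 genes rose and were ordered by the rule given below. These summed to 19.2, 5.82 and 7.96 CPM in WT CB and 1336, 330 and 54.6 CPM in WT CC. In HOMO they summed to 5.68 and 3.03 CPM in CB and 20.4 and 21.7 CPM in CC. None of the 30 genes was at 0 in all WT libraries. Of 25 tested, 18 rose and 1 fell (Lgmn, log2 change -0.32). C1qa, a chain of complement C1q, stood at 0.803, 0.133 and 0.367 CPM in CB and 66.1, 16.0 and 2.91 CPM in CC. Csf1r, the receptor that macrophages need to survive, stood at 2.83, 0.565 and 1.01 CPM in CB and 192, 40.1 and 6.92 CPM in CC. Axl, a receptor for dying cells, stood at 1.99, 0.499 and 0.367 CPM in CB and 181, 40.6 and 6.09 CPM in CC. Each of these genes was highest in CC replicate 1, lower in replicate 2 and lowest, though still above CB, in replicate 3. Apoe itself had 350, 302 and 248 CPM in CC and did not pass. Mfge8, also on the list, stood at 3.25, 2.96 and 2.22 CPM in CB and 2.54, 1.02 and 1.38 CPM in CC and did not pass. Erythroid genes followed the same libraries, with sums of 69.1, 15.9 and 5.19 CPM in CC replicates 1, 2 and 3 against 4.25 to 5.24 CPM in CB. Which kind of macrophage the transcripts came from was not tested.

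**Figure D4:**
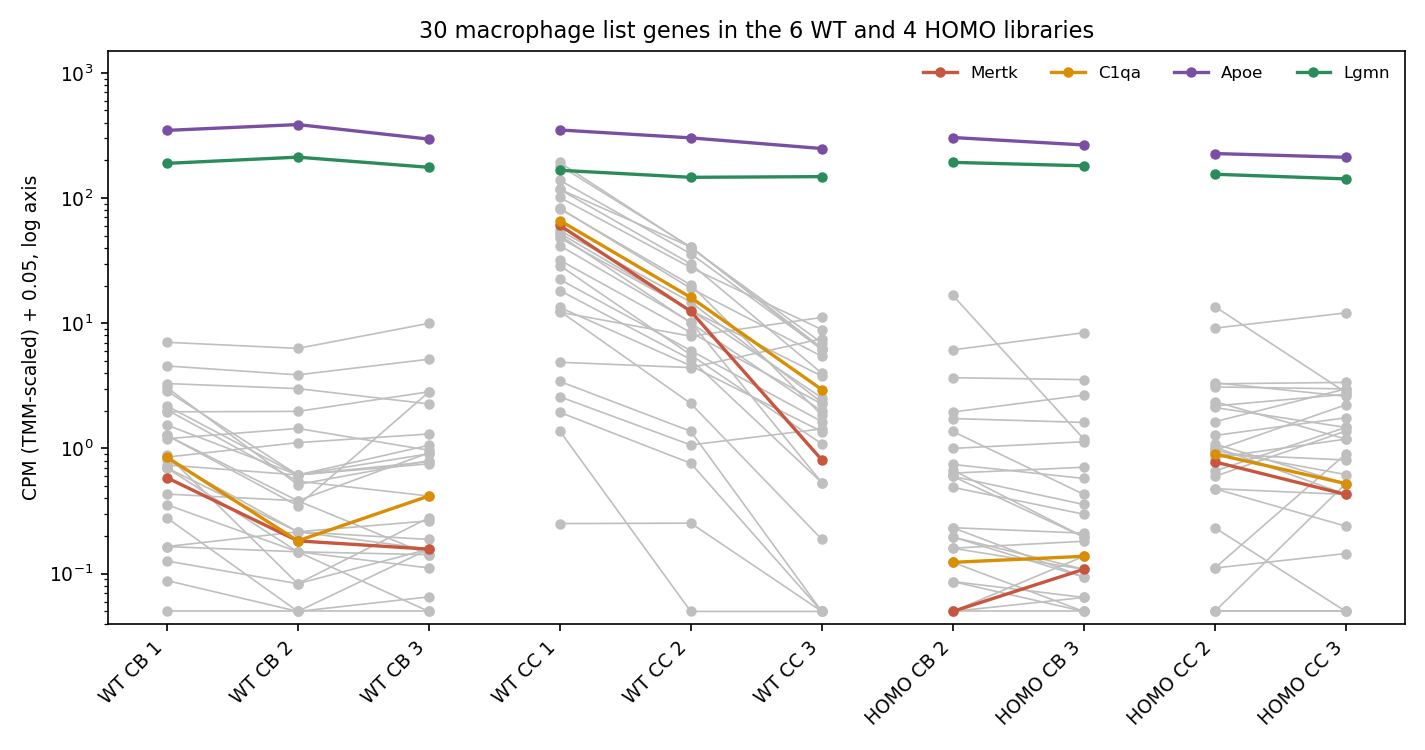
CPM (plus 0.05, log axis) of the 30 macrophage list genes in the 6 WT and 4 HOMO libraries, 1 line per gene within each group. CC replicate 1 holds the highest levels of most genes, with a summed level of 2056 CPM against 483 CPM in CC replicate 3, while Apoe stays between 212 and 386 CPM in all 10 libraries.

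The 1787 rises were therefore divided by how they ran across the replicate numbers. With d the difference in log2(CPM + 0.5) between CC and CB of a number, a rise held if d in number 3, whose CC library had the fewest macrophage transcripts, was above 0 and at least 0.5 of the larger of the other d values. A rise was ordered if d fell from number 1 to 2 to 3, as the macrophage sum of the CC libraries did, and by 1 or more in all, and this took precedence for the 10 rises that met both. By this rule 1177 rises (65.9%) held, 193 (10.8%) were ordered and 417 (23.3%) were neither. Over all genes tested the same rule gave 34.4%, 4.58% and 61.1%. The division uses the same libraries as the calls, so it describes them and tests nothing. The order is also not particular to macrophage transcripts. CC replicates 1, 2 and 3 held 27091509, 19946853 and 13662538 counts, 22.7%, 19.0% and 13.5% of them at the ribosomal RNA locus. Mitochondrially encoded transcripts took 2.46%, 1.56% and 0.98%. Which of these an ordered rise followed was not tested.

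The ordered rises were mainly of genes with little RNA in CB. Their median level in CB was 0.382 CPM, and 138 of 193 (71.5%) lay under 1 CPM there. The held rises had a median of 21.7 CPM in CB, and 8.75% of them lay under 1 CPM. Summed over the 193 ordered genes, levels were 467, 411 and 666 CPM in CB, 4848, 2037 and 1185 CPM in WT CC, 539 and 476 CPM in HOMO CB and 956 and 869 CPM in HOMO CC. Of the 18 macrophage genes that rose, 17 were ordered and Lyz2, which neutrophils also express, was not. Gfra2, a receptor of the GDNF family, stood at 0.191, 0 and 0 CPM in CB and 28.8, 7.98 and 0.692 CPM in CC. Ptprm, a receptor phosphatase, stood at 0.0765, 0 and 0.0306 CPM in CB and 19.9, 5.19 and 0.415 CPM in CC. Fcna, a complement lectin of spleen macrophages, stood at 0.650, 0.0997 and 0.0918 CPM in CB and 52.3, 12.7 and 2.49 CPM in CC. With such low CB levels the fitted log2 changes (7.63, 7.14 and 6.09, edgeR adjusted p = 0.000452, 0.00147 and 0.000452) depend on the prior count and bound no fold. Gfra2 lost its call without numbers 1 and 2 (adjusted p = 0.0657, the highest over its alternatives, whose lowest was 3.4e-21). Paqr9, Mertk, Itgad, Axl and Wdfy3 had the same order of levels. Their calls were lost without numbers 1 and 2 (Paqr9 0.139, Mertk 0.270, Itgad 0.0712, Wdfy3 0.0620), without replicate 2 (Mertk 0.0991, Itgad 0.137, Axl 0.0717, Wdfy3 0.186) and, for Wdfy3, without replicate 1 (0.0755), all edgeR adjusted p. Those of 4 of these genes were also lost by edgeR with no low-count filter (adjusted p = 0.0832 for Mertk, 0.113 for Itgad, 0.0574 for Axl and 0.167 for Wdfy3). With no replicate block the edgeR adjusted p was 0.0610 for Mertk, 0.0506 for Itgad and 0.0525 for Wdfy3, and with the macrophage sum as a covariate it was 0.0784 for Itgad and 0.274 for Wdfy3. Over the alternatives the highest adjusted p of these 5 genes lay between 0.0717 (Axl) and 0.274 (Wdfy3), and the lowest between 2.0e-16 (Axl) and 4.6e-11 (Paqr9).

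Outside the macrophage list 176 further genes were ordered, and in these the gap between CC libraries was smaller. The median ratio of CC replicate 1 to CC replicate 3 was 24.1 for the 17 listed genes and 5.05 for the 176 others. Of the ordered genes 9 stood at 5 CPM or more in CB, among them Marcks, Sirpa, Syne1 and Abcc5, named after their values were seen. Syne1, which links the nucleus to the cytoskeleton, stood at 232, 215 and 373 CPM in CB and 831, 668 and 517 CPM in CC. Sirpa, the myeloid receptor for CD47, stood at 20.7, 18.9 and 11.8 CPM in CB and 131, 51.9 and 23.9 CPM in CC. Both were highest in CC replicate 1 and yet present in every CB library. The held rises, in turn, had median d values of 0.70, 0.68 and 0.64 in numbers 1, 2 and 3. All 15 T cell help rises, all 10 immediate early rises and all 10 memory gene rises held, as did 19 of 21 light zone and 27 of 29 ribosome biogenesis rises. With the macrophage sum as a covariate, which costs 1 of the 2 residual degrees of freedom, 426 of the held and 69 of the ordered rises still passed. That sum included Apoe and Lgmn. In that fit, 18 light zone, 14 NF-kB, 18 ribosome biogenesis and 4 lipid synthesis genes were higher, and 46 G2 and M phase, 11 dark zone, 1 S phase and 1 respiratory chain gene were lower. Without replicates 1, 2 and 3 in turn 264, 224 and 1167 held and 35, 28 and 190 ordered rises passed. How much of any single rise came from macrophages was not tested.

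**Figure D5:**
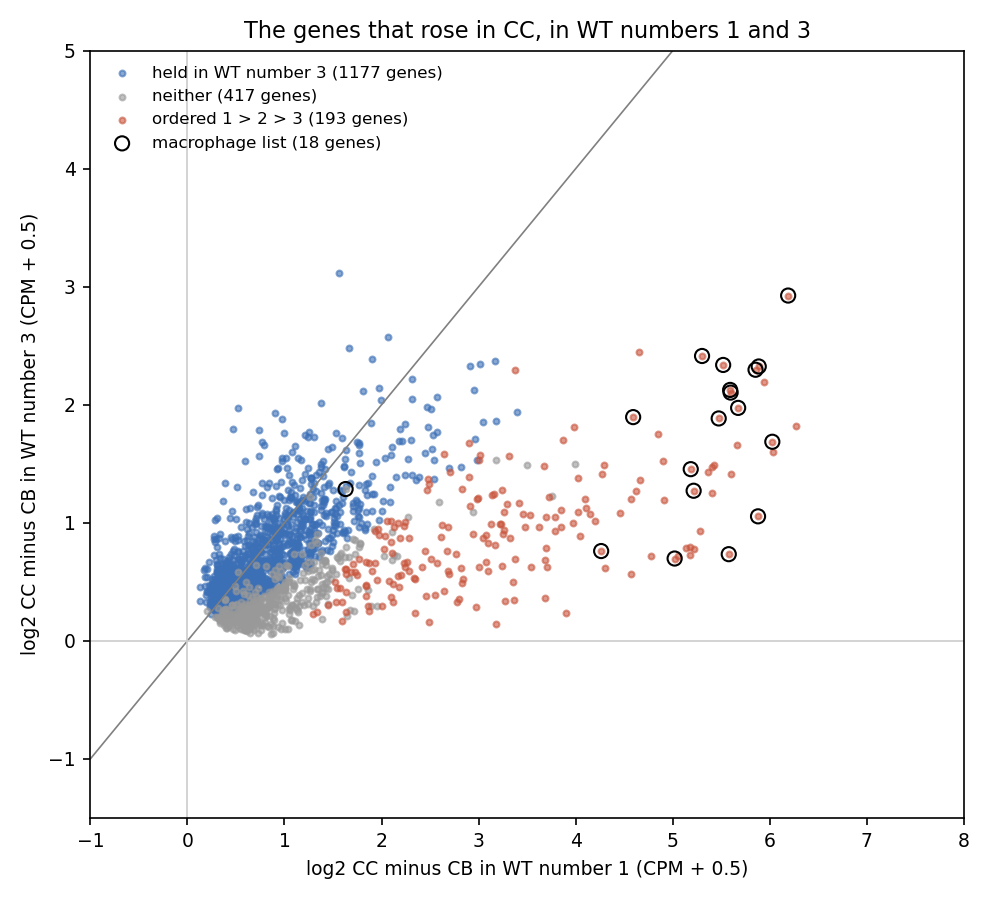
Log2 difference (CC minus CB, CPM + 0.5) in replicate number 1 against that in number 3 for the 1787 genes that rose, coloured by pattern, with the diagonal of equal differences and rings around the 18 macrophage genes. The 1177 held rises lie around the diagonal, and the 193 ordered rises, with median differences of 3.07 in number 1 and 0.87 in number 3, lie below it.

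The same contrast in the HOMO mice compares other libraries and gave a second reading of the WT differences. It came from a joint fit of all 10 libraries, so gene filter, scaling and variance estimates were shared with the WT. The HOMO calls are therefore not independent of the WT libraries. Among 16596 genes tested in all 10 libraries, 1046 (6.3%) were higher and 1249 (7.53%) lower in HOMO CC than in HOMO CB by edgeR. Of the genes tested in both, 860 rose in both genotypes, which is 48.1% of the WT rises and 83.2% of the HOMO rises, and 975 fell in both, 52.9% of the WT falls and 78.3% of the HOMO falls. No gene was called in opposite directions. The held rises were called in HOMO in 765 of 1177 cases (65.0%), the ordered ones in 21 of 193 (10.9%) and the rest in 74 of 417 (17.7%). By direction alone, 1167 held (99.2%), 178 ordered (92.2%) and 407 other rises (97.6%) were higher in HOMO CC, against 47.9% of all genes tested. Their median HOMO log2 changes were 0.58, 1.28 and 0.32, so few calls among the ordered rises did not mean an absent difference. Cd83, Il4i1 and Egr3 had HOMO log2 changes of 1.45, 2.08 and 1.82, and Cxcr4, Gcsam, Reln and Smarca4 of -1.43, -2.32, -2.55 and -1.08. The WT values in the same order were 1.32, 2.28, 2.03, -1.87, -2.44, -3.08 and -1.08. List medians in HOMO were 1.03 for light zone activation, 0.72 for NF-kB targets, -0.95 for dark zone genes, -0.72 for G2 and M phase, -0.20 for the respiratory chain and -0.04 for ribosomal proteins.

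The difference between the genotypes was tested as an interaction in all 10 libraries. No gene passed (0.0% of 16596) by edgeR, while 779 had an unadjusted p under 0.05 and DESeq2 called 2. With no low-count filter 41 genes passed, and without WT replicate 3 2112 did. The unadjusted interaction p of Cd83, Myc, Cxcr4 and Gcsam was 0.277, 0.665, 0.0975 and 0.487, and their adjusted p from edgeR lay between 0.785 and 0.93.

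GC content moved with the comparison. Genes that rose had a median GC content of 52.4%, those that fell of 45.8% and all genes tested of 49.0%. Across 8607 genes the CC minus CB difference had a rank correlation with GC content of 0.229, 0.255 and 0.414 in numbers 1, 2 and 3, given as a description since genes share their libraries. With an offset for GC content, 1819 genes (12.2%) were higher and 1428 (9.54%) lower in CC by edgeR. The offset left the counts of the main lists at 21 higher for light zone activation, 20 for NF-kB targets and 58 lower for G2 and M phase, and lowered that of S phase genes from 15 to 7. Of the 118 genes chosen by the naming rule, Pbrm1, Ccne2, Rps10, Fau and Smarce1 lost their call with it.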

How the data were processed

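The deposited values are raw read counts, whole numbers without any normalization, of 55421 genes. The authors made these counts with FastQC, STAR, Subread, featureCounts and R 4.2.1 on mm10, per the submitters' processing notes, which give neither order nor settings. Strand setting, treatment of multiply matching reads and annotation release: not given in the sources used here. Counts of antisense, overlapping and near-identical genes are uncertain for that reason. All 54587 identifiers matched with their version had the coordinates of GENCODE M21 on mm10, a further 567 were matched without it and 267 were not matched. Groups came from the sample titles, and each WT column of the table was matched to its title.

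edgeR 4.0.16 kept 14970 genes by filterByExpr (at least 10 counts, total of at least 15) and scaled libraries with TMM factors. The 6 WT libraries were fitted with fraction and replicate number in 1 negative binomial model (2 residual degrees of freedom, common biological coefficient of variation 16.8%) and tested two-sided by robust quasi-likelihood under R 4.3.3, with Benjamini-Hochberg adjusted p under 0.05. Each SE is the log2 change over the root of its F value. The interaction was fitted on all 10 libraries with the WT numbers as a block. HOMO columns are numbered 2 and 3 and the titles 1 and 2, so they carry no pairing. Deviations from the group means in CB and CC libraries of the same WT number correlated with r = 0.303, 0.434 and 0.437 across 8770 genes, and those of other pairs from -0.415 to 0.273. No label pairs the numbers, and these values mainly set number 3 apart. Every pair of a number 3 library with another number was negative, while CB replicate 1 had 0.303 with CC replicate 1 and 0.273 with CC replicate 2. Deviations from a group mean cancel within the group for each gene, which by itself forces some negative values, so these correlations are a description only. Whether a number stands for an animal or a batch was not tested. Libraries of a WT group differed by more than sampling noise (chi-square per degree of freedom 6.24 to 80.7).

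The members and the 36 gene lists (924 genes, 836 of them tested) were chosen with earlier results of these data known. Besides the markers, Pbrm1 and Smarca4, the rule for naming takes called genes with at least 5 CPM in the higher fraction that moved the same way in every number without overlap and had a proper symbol: the 12 largest falls, the 12 largest held and the 8 largest ordered rises. It adds up to 4 members with the smallest p per process list. Other genes are named as examples with their values, and were not part of the alternatives. On simulated counts with 200 changed genes (14715 tested), 49.3%, 94% and 97% were recovered at folds of 1.5, 2 and 4, with 28 false calls. The recovered genes numbered 33, 63 and 64, so false calls were a larger share of all calls than the threshold of 0.05. Recovery was not split by expression level, so for genes near 1 CPM it was not tested apart. The libraries themselves gave 3630 changed genes, far more than were simulated, so these rates may not hold for them. Alternatives changed the block, the libraries fitted, scaling, filter, tool (DESeq2 1.42.0, limma 3.58.1 voom), a minimum fold of 1.2, GC content, a macrophage covariate, and the replicates. Promoters are RefSeq windows on GRCm38.p6, found for 9600 tested genes; Cd83, Myc, Relb and Cd40 were not matched. Results of some genes are not reported here.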

Additional observations from a re-analysis of the deposited data

How the results depend on the processing

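With 3 libraries per fraction and 2 residual degrees of freedom, the number of calls depended strongly on the fit. None of the 118 named genes changed sign, but the naming rule takes called genes, so a kept sign was largely set by that choice. Against 3630 changed genes (1787 higher, 1843 lower), 2340 (1152 and 1188) passed with no replicate block, 2270 of them shared, 5867 (2811 and 3056) with all 10 libraries and the WT block, 1689 (906 and 783) against a fold of 1.2 and 977 (521 and 456) with the macrophage sum as covariate. Leaving out replicate number 1, 2 or 3 gave 595, 479 and 7523 changed, 304, 258 and 3676 higher and 291, 221 and 3847 lower genes. Without numbers 1 and 2, with the HOMO libraries kept and no block, an alternative added after the data were seen, 1051 were higher; there 1 lone library per WT fraction is assumed to vary like the other groups. The interaction count of 0 became 41 with no low-count filter and 2 with DESeq2, and leaving out 1 replicate gave 0 to 2112. Of the named genes, 20 of 118 lost their call with no block, 9 with all 10 libraries and no block, 4 with no filter, 12 against a fold of 1.2, 37, 42 and 0 without numbers 1, 2 and 3, 5 with the GC offset and 27 with the macrophage covariate. DESeq2, voom, both other scalings and the fit without robust estimation kept all of them. The lowest total of 13662538 counts limits genes near 1 CPM most.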
